A study of Caenorhabditis elegans with 6 samples.

Results

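The ERI pathway genes are 9 protein-coding genes of the nematode Caenorhabditis elegans whose products make 26G-RNAs or carry them: rrf-3, eri-1, eri-3, eri-5, eri-6, eri-7, eri-9, ergo-1 and dcr-1. They were chosen by name from the 20222 protein-coding genes of the deposited transcript table, and all 9 were present. The small RNA libraries were made from intact adult males, 3 from prg-1 null mutants and 3 from wild type. The prg-1 null animals lack PRG-1, the Piwi-class Argonaute that binds piRNAs. The labels name no null allele and no other mutation or treatment in either group. Each library came from 20 to 30 males kept at 25 °C and collected 24 h after the mid-L4 larval stage. The study compared the levels of 22G siRNAs between the genotypes, and the values below are the small RNAs that fall on the ERI genes themselves, not the mRNAs of these genes.

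26G-RNAs are primary siRNAs that begin with G. In background, the RNA-dependent RNA polymerase RRF-3 copies a target mRNA, and DCR-1 with its ERI partners cuts the resulting duplex. The Argonaute ERGO-1 carries one class of 26G-RNAs in oocytes and embryos, while ALG-3 and ALG-4 carry another during spermatogenesis. Targets of primary small RNAs, including targets of PRG-1, are then copied into 22G-RNAs by other RNA-dependent RNA polymerases. A gene that encodes an ERI factor can therefore be a 22G target in its own right.

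Genome-aligned reads numbered 1133888 to 2205341 in the prg-1 null libraries and 973971 to 1799846 in the wild type libraries. Antisense 22G reads that fell on protein-coding genes came to 176078 to 378138 in prg-1 null and 70387 to 309541 in wild type, with wild type replicate 3 the shallowest. On prg-1 itself, antisense 22G reads numbered 7, 15 and 9 in prg-1 null against 143, 441 and 88 in wild type (log2 fold change −5.09 ± 0.47, SE; edgeR adjusted p = 5.8e-09). These are siRNAs on prg-1, not its mRNA, and 32.6% of all tested genes were also lower. They therefore do not verify the genotype, which is taken from the labels. Per 1000000 genome-aligned reads, leaving out the abundant sense reads of rbd-1 and daf-15, short sense reads on 5 major sperm protein genes summed to 109.9 to 165.4 in prg-1 null and 509.5 to 1489.3 in wild type, and none of the 5 genes was at 0. The part of this difference in the results below was not tested, and in whole animals fewer cells of a type and less RNA per cell cannot be told apart. Nothing in the labels says that the libraries came from separate cultures, so p-values measure only the spread between these libraries.

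At the level of genes, 1 of the 9 ERI genes passed the test and 3 others were tested and did not pass. 22G reads here are antisense reads of 21 to 23 nt that start with G, and each gene is represented by its transcript form with the highest mean over the 6 libraries. Levels are in CPM, which is 22G reads per 1000000 22G reads of the tested genes after scaling by the trimmed mean of M values (TMM). Only eri-3, eri-6, ergo-1 and dcr-1 had enough reads to enter the edgeR comparison of 2879 genes. Of these 4 genes, 0 were higher in prg-1 null and 1, eri-3, was lower at a Benjamini-Hochberg adjusted p under 0.05. Over all tested genes 12.4% were higher and 32.6% were lower, so 1 of 4 lower is near the background. The median log2 fold change of the 4 was −0.28, beside −0.11 over all 2879 tested genes. The remaining 5 genes are given by their reads.

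**Figure D1:**
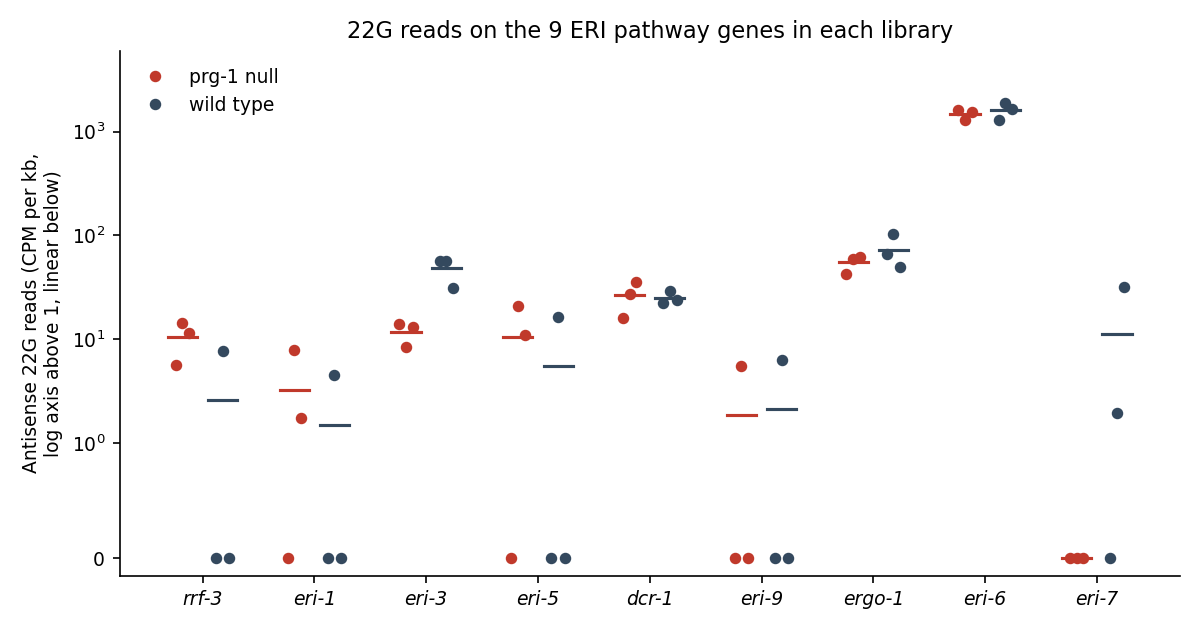
Antisense 22G reads on each ERI gene in CPM per kb of transcript (vertical axis, logarithmic above 1 and linear below), with 1 point per library and a line at the mean of 3 libraries; prg-1 null is left of wild type. The points of eri-6 lie far above those of the other 8 genes in both genotypes, only eri-3 has groups that do not overlap among the tested genes, and many points of the less targeted genes are at 0.

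The genes of the core complex that makes the 26G precursor were sparsely targeted. rrf-3 (WBcel235 II:8162465-8168644, plus strand), which encodes the polymerase that copies the target mRNA, had 5, 21 and 19 22G reads in prg-1 null and 0, 10 and 0 in wild type. Its level was 57.9 ± 24.4 CPM in prg-1 null males and 14.2 ± 24.6 CPM in wild type (SD, n = 3 each). All 3 prg-1 null libraries held reads and 2 of the 3 wild type libraries held none, yet the groups overlap. rrf-3 did not pass the low-count filter, so it was not in the main comparison. A fit without that filter tested all 9 ERI genes and called 0 higher and 0 lower. In the wild type libraries with 0 reads, 3 reads correspond to 28.0 CPM in replicate 1 and 42.0 CPM in replicate 3. The prg-1 null mean of 57.9 CPM is above both values and nearer that of replicate 3. The part of depth in these 0 reads was not tested.

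eri-5 (IV:2390821-2396263, plus strand) encodes a Tudor-domain protein that links RRF-3 to DCR-1. It had 0, 10 and 6 22G reads in prg-1 null and 0, 7 and 0 in wild type. eri-1 (IV:415635-419958, minus strand), a conserved 3′-to-5′ exonuclease that also trims 5.8S ribosomal RNA, had 0, 4 and 1 reads in prg-1 null and 0, 2 and 0 in wild type. eri-9 (III:4932450-4934945, plus strand), another protein of the complex, had 0, 3 and 0 reads in prg-1 null and 0, 3 and 0 in wild type. For these 3 genes each genotype had at least 1 library at 0, no gene passed the filter, and the reads were too few to judge a difference.

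eri-3 (WBGene00021103; II:1123534-1127791, plus strand) encodes a protein found with DCR-1 in the ERI complex. It had 4, 4 and 7 22G reads in prg-1 null, against 11, 24 and 4 in wild type. On the CPM scale these are 24.9, 15.1 and 23.4 in prg-1 null and 102.5, 102.4 and 56.0 in wild type. Every prg-1 null library was below every wild type library, with means of 21.1 ± 5.29 CPM in prg-1 null males and 87.0 ± 26.8 CPM in wild type (SD, n = 3 each). eri-3 fell by 2.06 ± 0.75 in log2 units (SE; adjusted p = 0.028 in edgeR). The call rests on 15 reads in prg-1 null and 39 in wild type. Leaving out 1 library at a time removed it in 5 of 6 fits (adjusted p = 0.067 to 0.14), as did scaling to genome-aligned reads without the sense reads of rbd-1 and daf-15 (adjusted p = 0.15) and dropping the low-count filter (adjusted p = 0.18). Leaving out wild type replicate 3 kept it (adjusted p = 0.020).

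The tested genes with the 22G pattern most like eri-3 over the 6 libraries were tomm-20, which encodes a receptor of mitochondrial protein import, and W04A4.5. Likeness was the Euclidean distance between the genes in log2(CPM + 1), and it was 0.96 for tomm-20 and 0.97 for W04A4.5 among the 2879 genes. tomm-20 had a log2 fold change of −2.38 (edgeR adjusted p = 0.0073) and W04A4.5 one of −2.15 (edgeR adjusted p = 0.015). Likeness was taken over both genotypes, so a fall near that of eri-3 follows from the choice of these genes. Their values lend no weight to the eri-3 call.

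dcr-1 (WBGene00000939; III:8071916-8080281, minus strand) encodes Dicer, the nuclease shared by the microRNA, exogenous RNAi and 26G pathways. It had 15, 43 and 63 22G reads in prg-1 null and 14, 40 and 10 in wild type. That is 155.1 ± 58.7 CPM in prg-1 null males and 147.1 ± 21.02 CPM in wild type (SD, n = 3 each). The groups overlap, and the log2 fold change was 0.08 ± 0.52 (SE; edgeR adjusted p = 0.92).

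ergo-1 (WBGene00019971; V:1008803-1018350, plus strand) encodes the Argonaute that binds 26G-RNAs in oocytes and embryos. It had 25, 58 and 68 22G reads in prg-1 null and 26, 88 and 13 in wild type. Its level was 200.3 ± 38.9 CPM in prg-1 null males and 266.6 ± 99.0 CPM in wild type (SD, n = 3 each). The groups overlap here too, and the log2 fold change was −0.44 ± 0.47 (SE; edgeR adjusted p = 0.50). Of all antisense reads on ergo-1, 88.8% were of the 22G type in prg-1 null (95% exact binomial interval 83.1% to 93.1%, 170 reads) and 85.8% in wild type (79.1% to 91.0%, 148 reads). Over all protein-coding genes the shares were 52.3% in prg-1 null and 44.0% in wild type.

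The joint helicase ERI-6/7 is encoded by a pair of genes, eri-6 and eri-7, that lie on opposite strands and whose transcripts are joined by trans-splicing. The 2 genes were targeted very differently. eri-7 (I:4451200-4456805, minus strand) had 0, 0 and 0 22G reads in prg-1 null and 0, 1 and 5 in wild type. For scale, 3 reads over the 3 prg-1 null libraries would correspond to 4.13 CPM. That value is not an upper limit, as it leaves out the spread between libraries. In wild type 5 of its 6 reads came from replicate 3.

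eri-6 (WBGene00016561; I:4457383-4469461, plus strand) was by far the most targeted ERI gene. Form e, the form with the highest mean over the 6 libraries, had 336, 438 and 596 22G reads in prg-1 null and 177, 566 and 152 in wild type. The level of this form was 1910 ± 232 CPM in prg-1 null males and 2064 ± 387 CPM in wild type (SD, n = 3 each). The groups overlap, and the log2 fold change was −0.11 ± 0.31 (SE; edgeR adjusted p = 0.80), close to the median of −0.11 over all tested genes.

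Per kb of transcript, the scale on which genes can be set side by side, eri-6 had a mean level of 1480 CPM per kb in prg-1 null and 1600 CPM per kb in wild type. Of all 20222 protein-coding genes, 0.79% reached that level in prg-1 null and 0.62% did in wild type. ergo-1 came next, with 54.8 CPM per kb in prg-1 null and 73.0 CPM per kb in wild type. In prg-1 null the order went on with dcr-1 at 26.4, eri-3 at 11.8, eri-5 at 10.6, rrf-3 at 10.5, eri-1 at 3.23, eri-9 at 1.86 and eri-7 at 0 CPM per kb. In wild type it went on with eri-3 at 48.5, dcr-1 at 25.0, eri-7 at 11.3, eri-5 at 5.47, rrf-3 at 2.58, eri-9 at 2.10 and eri-1 at 1.499 CPM per kb. The libraries of eri-6 stood clear of those of ergo-1 in both genotypes. In prg-1 null those of ergo-1, dcr-1 and eri-3 were also apart from one another, and from eri-3 down each gene overlapped the next. In wild type ergo-1 overlapped eri-3, eri-3 was apart from dcr-1, and from dcr-1 down each gene overlapped the next.

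The 1-form summary of eri-6 covered 48.1% of the gene's 22G reads, the share held by form e among the 8 transcript forms in the table. Forms a, b, c and e held nearly all of these 22G reads, and forms d, f.2 and f.3 held 0 of them. Form f.1 held 0, 0 and 0 in prg-1 null and 1, 1 and 0 in wild type. A fit that keeps each transcript as a feature of its own, added after the data had been seen, tested 2829 transcripts, of which 12.9% were higher and 32.6% lower in prg-1 null. In that fit 2 of the 4 tested forms of eri-6 passed, form b as higher and form c as lower, each by more than 10-fold.

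Form b (2121 nt) had 203, 364 and 493 22G reads in prg-1 null, against 7, 24 and 5 in wild type. In CPM of the transcript fit this is 1254, 1355 and 1612 in prg-1 null and 65.4, 102.1 and 69.4 in wild type. The lowest prg-1 null library was more than 10 times the highest wild type library. The means were 1407 ± 185 CPM in prg-1 null males and 79.0 ± 20.1 CPM in wild type (SD, n = 3 each), 17.8-fold higher, and form b rose by 4.09 ± 0.44 in log2 units (SE; adjusted p = 7.9e-08 in edgeR).

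Form c (1789 nt) went the other way. It had 11, 35 and 24 22G reads in prg-1 null, against 303, 662 and 154 in wild type, or 67.9, 130.3 and 78.5 CPM in prg-1 null males and 2832, 2815 and 2137 CPM in wild type. No prg-1 null library came near the lowest wild type library. The means were 92.2 ± 33.4 CPM in prg-1 null males and 2595 ± 397 CPM in wild type (SD, n = 3 each), a level 28.1-fold higher in wild type, and form c fell by 4.79 ± 0.41 in log2 units (SE; adjusted p = 2.2e-09 in edgeR). Both calls held in all 13 other fits of the transcript table, in which the log2 fold change of form b was 3.82 to 4.63 and that of form c −5.51 to −3.70.

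**Figure D2:**
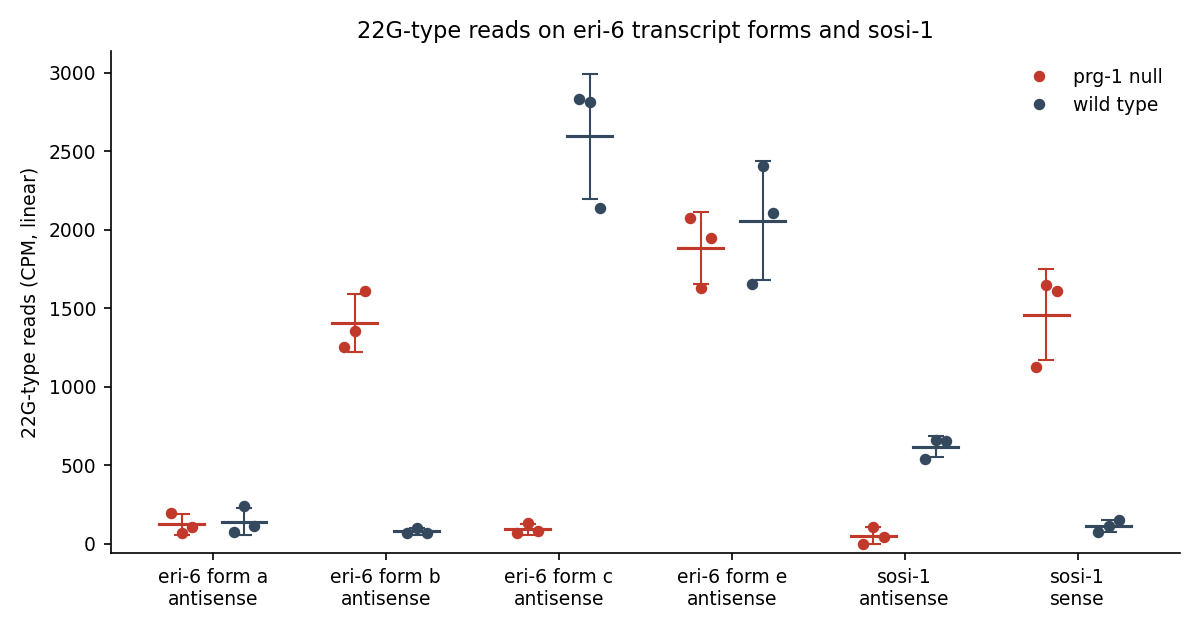
Reads of the 22G type on 4 transcript forms of eri-6 (antisense) and on sosi-1 (antisense and sense), in CPM of the transcript fit on a linear axis, with 1 point per library, a line at the mean and bars of 1 SD (n = 3); prg-1 null is left of wild type. Form b and the sense reads of sosi-1 are high in prg-1 null, at means of 1407 and 1459 CPM, while form c and the antisense reads of sosi-1 are high in wild type, at means of 2595 and 619 CPM, and forms a and e overlap.

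The other forms did not pass. Form a had 32, 18 and 32 22G reads in prg-1 null and 8, 56 and 8 in wild type (log2 fold change −0.29 ± 0.60, SE; edgeR adjusted p = 0.74). Form e, tested as a transcript, had a log2 fold change of −0.13 ± 0.30 (SE; edgeR adjusted p = 0.77).

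As shares of the gene's 22G reads, form b held 40.2 ± 4.59% in prg-1 null and 1.60 ± 0.21% in wild type (SD, n = 3 each). Form c held 2.69 ± 1.22% in prg-1 null and 53.3 ± 6.83% in wild type, and form e held 53.7 ± 3.54% in prg-1 null and 42.2 ± 6.05% in wild type. The groups do not overlap for any of these 3 forms, and each had a two-sided exact permutation p of 0.1, the smallest that 3 against 3 libraries can give. Form a held 3.47 ± 1.79% in prg-1 null and 2.80 ± 1.36% in wild type, with overlapping groups.

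Summed over the 8 forms, with form b higher and form c lower, the mean level in TMM-scaled CPM was lower in prg-1 null. The sum was 582, 855 and 1145 reads in prg-1 null and 496, 1309 and 319 in wild type, or 3507 ± 290 CPM in prg-1 null males and 4876 ± 607 CPM in wild type (SD, n = 3 each). Every prg-1 null library was lower than every wild type library, but the log2 fold change of −0.46 ± 0.27 did not pass (SE; edgeR adjusted p = 0.19). The sum was not fitted with scaling to genome-aligned reads. Over all tested genes that scaling moved the log2 fold change up by a median of 0.55.

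The counting rule bears on what a form's reads stand for. No source states how reads that fit several features were assigned. In the deposited table, transcripts wholly contained in earlier-listed forms of their gene almost never held an antisense read. Of 225 such transcripts 222 had 0 antisense reads, whereas 38 of 95 transcripts contained in later-listed forms held antisense reads. Forms a, b, c and d start at the same base in the table, and form a comes first, so under that order reads on exons they share would be counted for form a. The reads listed for forms b and c would then be those outside the shared part. Form e comes after forms a and c and lies within their spans, so its listed reads may also be only a remainder. The same limit holds for the level per kb of eri-6, which rests on form e. The 0 reads of forms d, f.2 and f.3 may likewise follow from the order. How far this goes was not tested.

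The Ensembl annotation of WBcel235 places form b and form e. The length of form b in the table was within 2 bases of the annotated one and that of form e was identical. Forms b and d have 7 exons of 951 bases in common at the 5′ end, and form b ends in a last exon of its own of 1172 bases (I:4460105-4461276). Of that exon, 1131 bases overlap sosi-1 (C41D11.6; I:4460146-4462704, minus strand), a single-exon gene on the opposite strand inside the span of eri-6. Form e lies further downstream, at I:4463854-4466007. Forms a and c and the f forms differ in length between table and annotation, so their exons were not placed; the table gives form c the span I:4457383-4466716.

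**Figure D3:**
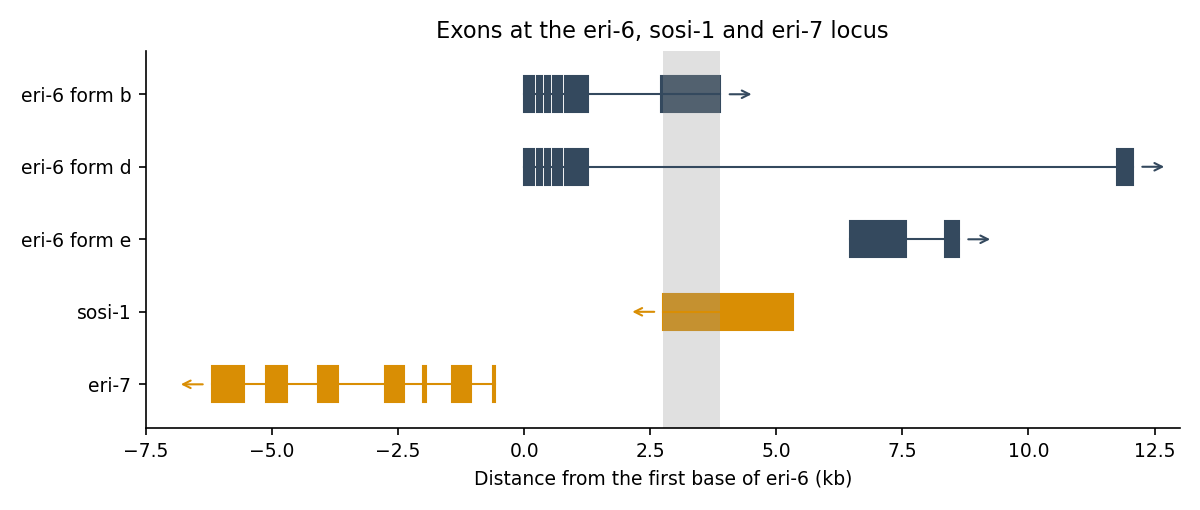
Exons of eri-6 forms b, d and e, of sosi-1 and of eri-7 as annotated (boxes), against distance from the first base of eri-6 in kb; arrows give the direction of transcription and the grey band marks the 1131 bases where the last exon of form b and sosi-1 overlap. The last exon of form b is the only exon drawn for eri-6 that meets sosi-1, and eri-7 lies 569 bases away on the opposite strand.

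22G reads on sosi-1 changed on both strands. Its antisense 22G reads, which target sosi-1 itself, numbered 0, 29 and 14 in prg-1 null, against 58, 156 and 47 in wild type. That is 52.0 ± 54.8 CPM in prg-1 null males and 621 ± 70.1 CPM in wild type (SD, n = 3 each), with no overlap. sosi-1 fell by 3.48 ± 0.65 in log2 units (SE; adjusted p = 8.3e-05 in edgeR).

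Sense reads of the 22G type on sosi-1, which lie on the same genomic strand as antisense reads of eri-6, numbered 182, 442 and 492 in prg-1 null and 8, 26 and 11 in wild type. In CPM of the transcript fit, whose denominator is antisense 22G reads, they averaged 1459 ± 291 in prg-1 null and 112.7 ± 39.0 in wild type (SD, n = 3 each; two-sided exact permutation p = 0.1, the smallest possible). The reverse pair, sense 22G-type reads on form b, which lie on the same strand as antisense reads of sosi-1, numbered 1, 2 and 3 in prg-1 null and 10, 19 and 5 in wild type. Between form b and sosi-1, reads on the strand antisense to eri-6 were thus higher and reads on the other strand lower in prg-1 null, whereas forms c and e, whose antisense reads lie on that same strand, were lower and overlapping. Whether a read in the 1131 bases of overlap is counted for 1 of the genes or for both was not tested. Reads that target eri-6 form b and sense reads of sosi-1 therefore cannot be told apart there.

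The reads on the changed forms had the length of 22G-RNAs. On form b, 57.0% of antisense reads were 22 nt long in prg-1 null (1348 reads) and 51.1% in wild type (45 reads). The 22G type made up 78.6% of its antisense reads in prg-1 null (95% exact binomial interval 76.3% to 80.8%) and 36 of 45 reads in wild type (65.4% to 90.4%). Form c differed: the 22G type made up 38.04% of its 184 antisense reads in prg-1 null (31.002% to 45.5%) and 69.1% of its 1619 antisense reads in wild type (66.8% to 71.4%). On form e the shares were 59.1% in prg-1 null and 57.0% in wild type. Such intervals hold for counting error alone, as no molecular identifiers were used.

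**Figure D4:**
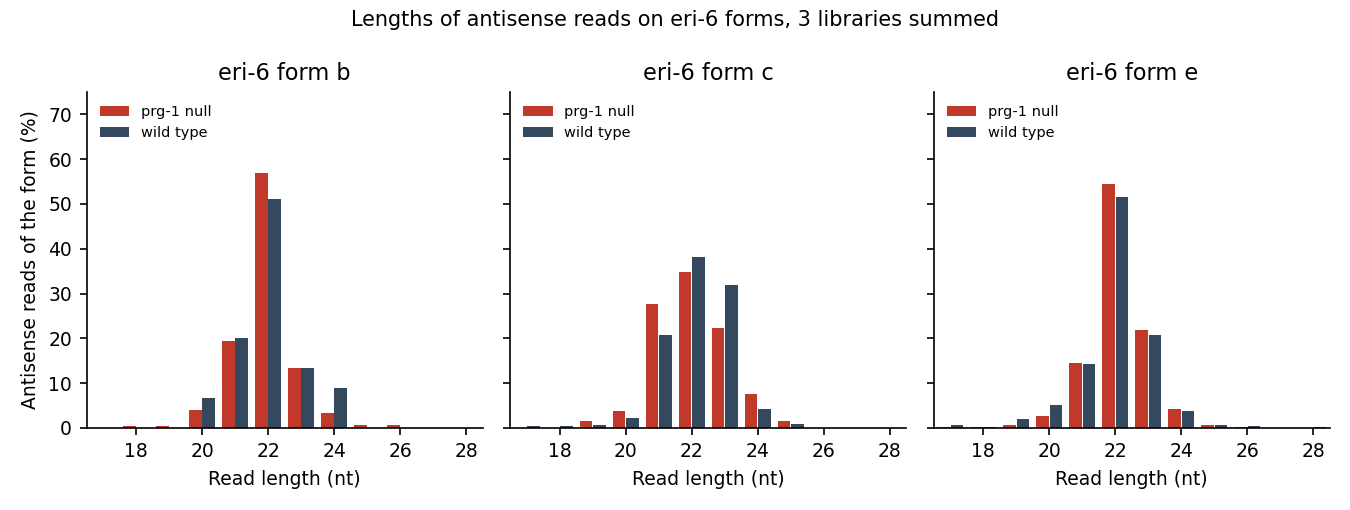
Share of antisense reads by read length (nt) on eri-6 forms b, c and e, with the 3 libraries of each genotype summed; bars of prg-1 null stand left of those of wild type. All 3 forms peak at 22 nt in both genotypes, and form c has a broader peak, with 27.7% at 21 nt in prg-1 null and 31.9% at 23 nt in wild type.

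26G reads, taken as antisense reads of 26 nt that start with G, were nearly absent from the ERI genes. No ERI gene passed the filter of the 26G comparison, which tested 643 genes and called 1.71% of them as higher and 0.467% as lower, 2.18% in all. eri-6 had 7, 3 and 4 26G reads over its forms in prg-1 null and 0, 1 and 0 in wild type, of which form b held 7, 1 and 1 in prg-1 null and 0 in wild type. rrf-3 and eri-3 had 2 reads each, all in prg-1 null, and dcr-1 had 2 in prg-1 null and 1 in wild type. eri-1, eri-5, eri-7, eri-9 and ergo-1 had 0 in all 6 libraries. The whole class of 26G reads on protein-coding genes amounted to 16072 ± 3841 per 1000000 genome-aligned reads in prg-1 null and 19188 ± 10533 per 1000000 in wild type (SD, n = 3 each; two-sided exact permutation p = 0.7). That difference of −3117 per 1000000 did not keep its size or sign when 1 library was left out. It was −5082 without prg-1 null replicate 2, −1245 without prg-1 null replicate 3, 835 without wild type replicate 1, −1090 without wild type replicate 2 and −9096 without wild type replicate 3. The 22G class amounted to 167373 ± 10647 per 1000000 in prg-1 null and 112610 ± 52510 per 1000000 in wild type (SD, n = 3 each; exact permutation p = 0.3). With the sense reads of rbd-1 and daf-15 left out of the denominator the 22G class came to 199806 ± 4144 per 1000000 in prg-1 null and 132841 ± 49982 per 1000000 in wild type, with no overlap (exact permutation p = 0.1, the smallest possible). The difference of 54763 per 1000000 genome-aligned reads became 84449 without wild type replicate 2 and 34592 without wild type replicate 3.

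Among other factors that act with the ERI proteins, calls are to be read beside the 12.4% higher, 32.6% lower and 45% in either direction over all tested genes, and the numbers tested are small. Of 8 other genes needed for 26G-RNAs (rde-4, drh-3, pir-1, ekl-1, gtsf-1, henn-1, alg-3 and alg-4), 3 were tested, 0 were higher and 1 was lower. Their median log2 fold change was 0.07. The gene that passed was rde-4, which encodes the double-stranded RNA-binding partner of DCR-1. It had 1, 11 and 10 22G reads in prg-1 null, against 41, 97 and 10 in wild type, or 26.998 ± 18.4 CPM in prg-1 null males and 312 ± 150 CPM in wild type (SD, n = 3 each). All prg-1 null libraries were below all wild type libraries, and rde-4 fell by 3.44 ± 0.62 in log2 units (SE; adjusted p = 6.3e-05 in edgeR).

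alg-3 and alg-4, the sperm Argonautes of 26G-RNAs, were the only ERI-related genes of these lists that passed the filter for 26G reads; they are named here for that reason, after their values had been seen. Summed over its forms, alg-4 had 14, 31 and 34 26G reads in prg-1 null and 51, 51 and 10 in wild type. Its log2 fold change was −0.41 for the form with the highest mean and −0.39 for the summed forms. alg-3 had 0, 23 and 10 over its forms in prg-1 null and 13, 22 and 0 in wild type. Its log2 fold change was 0.28 for the form with the highest mean and 0.085 for the summed forms. Neither passed in the edgeR comparison.

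Of 12 genes that act downstream of ERGO-1 (rrf-1, ego-1, mut-2, mut-7, mut-14, mut-15, mut-16, rde-2 and nrde-1 to nrde-4), 6 were tested, 0 were higher and 1 was lower, with a median log2 fold change of −0.25. The gene that passed was nrde-1, a factor of nuclear RNAi that acts at the chromatin of target genes. It had 7, 3 and 7 22G reads in prg-1 null, against 56, 94 and 17 in wild type. Its level was 26.1 ± 16.3 CPM in prg-1 null males and 387 ± 143 CPM in wild type (SD, n = 3 each), with no overlap, and it fell by 3.96 ± 0.60 in log2 units (SE; adjusted p = 7.0e-06 in edgeR). Of 4 other partners of DCR-1 (rde-1, drh-1, alg-1 and alg-2), only drh-1 was tested. drh-1, a Dicer-related helicase of antiviral RNAi, had 16, 18 and 13 22G reads in prg-1 null and 0, 12 and 3 in wild type (log2 fold change 1.06 ± 0.84, SE; edgeR adjusted p = 0.34). alg-2, a microRNA Argonaute and the next most targeted of the 4, had 1, 8 and 10 reads in prg-1 null and 1, 14 and 2 in wild type.

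The genes next to or overlapping the ERI genes were examined as their genomic neighbours. By position, only the overlapping genes could have reads listed with those of an ERI gene. There were 21 such protein-coding genes, among them T01A4.9, which had no entry among the deposited transcripts. Of the 21, 6 were tested, 2 were higher and 2, sosi-1 and emb-27, were lower, with a median log2 fold change of −0.0093. Over all tested genes 12.4% were higher and 32.6% lower. emb-27, which encodes a subunit of the anaphase-promoting complex and lies 294 bases from rrf-3, had 18.7, 48.9 and 23.4 CPM in prg-1 null, against 531.3, 507.8 and 154.0 CPM in wild type. It fell by 3.68 ± 0.60 in log2 units (SE; adjusted p = 1.9e-05 in edgeR), with no overlap between groups.

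Both genes beside eri-5 were higher in prg-1 null. Y38F2AR.12, 3220 bases away, had 740, 1059 and 1563 22G reads in prg-1 null, against 16, 139 and 16 in wild type. Its level was 4603 ± 614 CPM in prg-1 null males and 322 ± 238 CPM in wild type (SD, n = 3 each), with no overlap, and it rose by 3.76 ± 0.42 in log2 units (SE; adjusted p = 8.6e-08 in edgeR). trap-3, which encodes a subunit of the translocon-associated protein complex, lies 561 bases from eri-5 and had 35, 6 and 34 reads in prg-1 null and 5, 1 and 1 in wild type. It rose by 2.55 ± 0.94 in log2 units (SE; adjusted p = 0.030 in edgeR), with overlapping groups, and this call was lost without prg-1 null replicate 1 (adjusted p = 0.11), without wild type replicate 2 (0.24) and without wild type replicate 3 (0.059).

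The other overlaps were short or empty. T05C12.11 overlaps rrf-3 by 37 bases and had 0 22G reads, Y38F2AR.10 overlaps eri-5 by 23 bases and had reads only in wild type replicate 2, where it had 9. pei-2, a protein of sperm granules, overlaps ergo-1 by 17 bases and had a log2 fold change of −0.69 ± 0.83 (SE; edgeR adjusted p = 0.55). The non-coding genes Y38F2AR.19 and linc-104 and the gene T01A4.9, which overlap eri-5 or eri-6 in the annotation, were not analysed here.

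**Figure D5:**
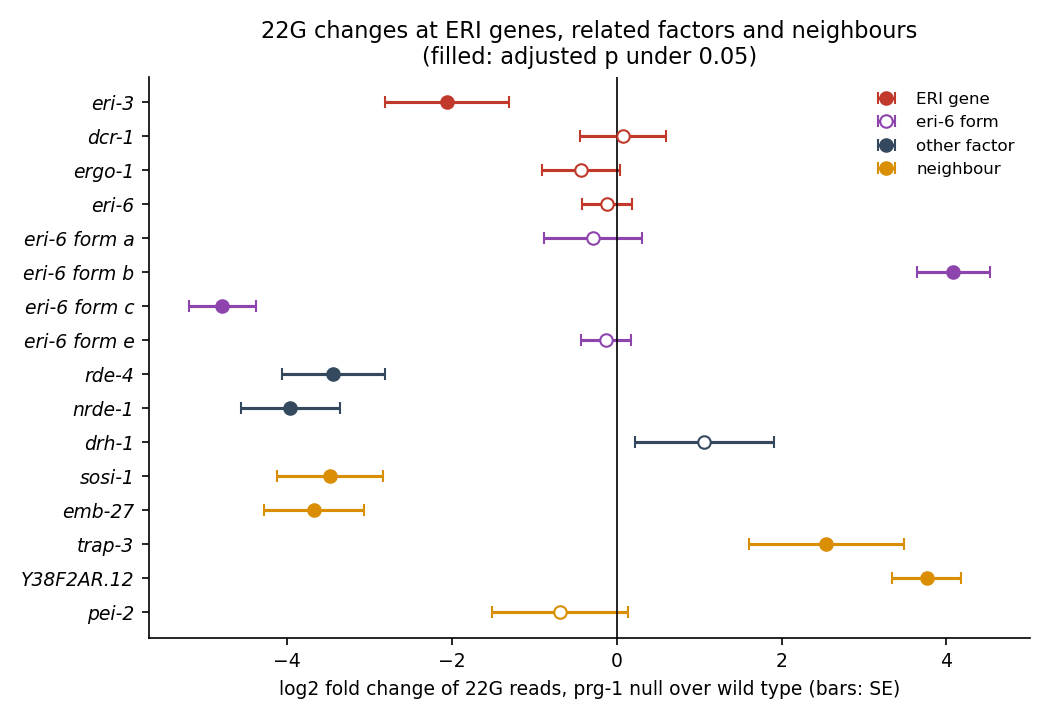
Log2 fold change of 22G reads, prg-1 null over wild type, with SE bars, for the tested ERI genes, the forms of eri-6, related factors and neighbouring genes; filled points have an edgeR adjusted p under 0.05. Among the ERI genes only eri-3 is filled, while forms b and c of eri-6 lie at 4.09 and −4.79 on either side of the gene's own point near 0.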

How the data were processed

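The authors deposited small RNA read counts on transcripts (named expected counts here because no source states how reads that fit several places were assigned; all were whole, so rounding changed nothing), with lists of reads by length and first base. Per the labels' protocols, an acid pyrophosphatase step preceded cloning, which admits RNAs with a 5′ triphosphate. FastQC 0.12.0, cutadapt 3.7 and WBcel235 are named in the submitters' processing notes, while an aligner is not given in the sources used here. One total row was left out. Near-identical genes may exchange reads.

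Antisense reads of 21 to 23 nt (22G) or 26 nt (26G) starting with G were counted per protein-coding gene, by its form with the highest mean. Genotypes were compared over all genes with edgeR 4.0.16 in R 4.3.3 (quasi-likelihood test, filterByExpr, TMM, genotype as the only term, Benjamini-Hochberg threshold 0.05), tested on simulated data. Each SE of an edgeR log2 fold change is its absolute value divided by the square root of the quasi-likelihood F statistic. It thus adds nothing beyond the fold change and its p-value. Totals and shares were compared by exact two-sided permutation tests. Python 3.11.15, pandas 2.3.3, scipy 1.17.1 and matplotlib 3.10.9 did the rest. Exons came from Ensembl release 115.

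The ERI genes, the other lists and the rule for names were chosen with earlier results of these data known. The text names all 9 ERI genes and, from each list of related factors, genes that passed or else the 2 with most 22G reads. It also names overlapping genes, neighbours that passed and, for an ERI gene that passed, the 2 genes nearest in log2(CPM + 1). The labels do not say whether same-numbered libraries were paired. Same-numbered libraries deviated from their group means with correlations of −0.03, 0.04 and 0.002, which cannot exclude pairing. Alternatives were DESeq2 1.42.0, limma-voom (limma 3.58.1), library-size scaling, scaling to genome-aligned reads without the sense reads of rbd-1 and daf-15, other filters and read classes, summed forms, pseudogenes kept, a replicate block and leaving out each library.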

Additional observations from a re-analysis of the deposited data

Results flagged for a closer look

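Sense reads of the 22G type on sosi-1 are outside the comparison of antisense reads and drew attention because they were above the wild type level. In CPM of the transcript fit, whose denominator is antisense 22G reads, they averaged 1459 ± 291 in prg-1 null and 112.7 ± 39.0 in wild type (SD, n = 3 each; two-sided exact permutation p = 0.1, the smallest that 3 against 3 libraries can give), and every prg-1 null library was above every wild type library. The 22G type made up 74.5% of 1498 sense reads in prg-1 null (95% exact binomial interval 72.2% to 76.7%) and 97.8% of 46 in wild type (88.5% to 99.9%), and 22 nt was the commonest length in both. Which of them also fit the last exon of eri-6 form b was not tested.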

How the results depend on the processing

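Opposite calls of eri-6 forms b and c, and the calls of rde-4, nrde-1, sosi-1, emb-27 and Y38F2AR.12, held in all alternatives in which they were tested. The number of ERI genes called lower was 0 in place of 1 under scaling to genome-aligned reads without rbd-1 and daf-15 sense reads (genome-based scaling below), no filter, at least 10 reads, 22-nt reads, all antisense reads and the replicate block (eri-3 was not tested with at least 10 reads, 22-nt reads or all antisense reads), and 0 to 1 when 1 library was left out. Genome-based scaling moved the median log2 fold change by 0.55 and gave 569 genes higher in place of 357 (40.2% of calls against 27.6%) and 575 transcripts higher in place of 365. 26G calls, 11 higher and 3 lower, became 3 and 0 under that scaling, 17 and 6 with limma-voom, 7 and 0 with the replicate block and 31 and 9 at 25 to 27 nt; at least 10 reads gave 8 lower, and leaving out 1 library gave 6 to 18 higher and 0 to 10 lower, with wild type replicate 3 left out giving the most. Under the replicate block eri-3 had an adjusted p of 0.12, and other ERI calls did not change. Signs turned only among changes that passed nowhere. For eri-6 and its form e these were 0.44 with genome-based scaling (both), 0.12 at 22 nt (both) and 0.036 (gene) and 0.035 (form) with all antisense reads, and leaving out 1 library gave −0.25 to 0.20 (gene) and −0.35 to 0.0037 (form). Genome-based scaling gave 0.22 for form a, 0.082 for ergo-1 and −0.081 for 26G reads on alg-3; alg-3 had −0.090 with limma-voom and −0.015 at 25 to 27 nt. dcr-1 had −0.20 with at least 10 reads. Leaving out 1 library gave −0.0051 to 0.60 for dcr-1, −0.83 to 0.40 for form a and −0.59 to 0.77 for alg-3. trap-3 lost its call with library-size scaling, limma-voom and all antisense reads (adjusted p 0.051, 0.19 and 0.12). The cause of these changes was not tested. The 5 ERI genes that did not enter the main comparison each had 0 22G reads in at least 1 library. The part of depth in this was not tested.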
